A study of Mus musculus with 6 samples.

Results

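The mouse gene Creb5 (ENSMUSG00000053007.9) was examined as 1 locus in the open chromatin of splenic regulatory T cells (Tregs) with and without the transcription factor CREB. The gene is transcribed from the forward strand and spans 53287270 to 53700376 of chromosome 6 (GRCm38, GENCODE vM21), which is 413 kb, and has 15 annotated transcripts. All accessible regions that overlapped the gene or 10 kb on either side (53277270 to 53710376) were taken as its members. These were 10 of the 100771 regions listed for CREBfl/fl and 21 of the 94499 listed for Foxp3creCREBfl/fl, which merged into 21 of 104845 regions of both lists. Creb5 was chosen by the measured values of this comparison, since its regions were called more often in Foxp3creCREBfl/fl and held more fragments relative to the background of the list. The differences at the locus are therefore described and not tested.

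The study profiled splenic Tregs of mice that were 6 to 12 weeks old by ATAC-seq, and the labels list 3 libraries per genotype where the methods speak of duplicates. All mice were C57BL/6 and carried floxed CREB alleles. CREBfl/fl controls lacked the Cre transgene and are named WT in the labels, while Foxp3creCREBfl/fl mice carried Cre behind the Foxp3 gene (Foxp3-IRES-Cre), so that CREB is deleted in Foxp3-expressing cells, and are named Foxp3_KO in the titles, although the gene deleted by the series design is CREB. The processed data used here were 1 peak list per genotype, and how the libraries were joined is not stated, so mice could not be compared and no p-value is given. Each library is a pool of cells, and fewer cells with an open site cannot be told apart from a site that is less open per cell.

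CREB5, also known as CRE-BPa, is a basic leucine zipper (bZIP) transcription factor that belongs with ATF2 and ATF7 to the ATF2 subfamily. The human protein binds the cAMP response element (CRE) as a homodimer or together with JUN or ATF2. CREB itself, encoded by Creb1, forms another subfamily with CREM and ATF1 and binds the same element. JUN, FOS and BATF proteins bind the related AP-1 word. In ATAC-seq a transposase inserts into open DNA, so that promoters and enhancers appear as peaks of sequenced fragments.

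The sequences of the regions on which the comparison turned are shown first, read 5′ to 3′ on the forward strand of GRCm38 and named by the distance of the summit from the first start site. The stretch before the first Creb5 start is shown because its capitals mark a full CRE, 12 bases before the start. The region at 115 kb had the largest ratio of all regions called in both genotypes, and its capitals mark a RUNX word. The AP-1 words are in capitals in the regions at 122, 168, 186 and 211 kb. The regions at 82.9 and 102 kb carry an ETS word in capitals, the latter on the reverse strand. The region at 303 kb is shown as the strongest of the gene in both genotypes, with the first bases of a CRE (TGACG) in capitals.
Promoter, chr6:53287120-53287269: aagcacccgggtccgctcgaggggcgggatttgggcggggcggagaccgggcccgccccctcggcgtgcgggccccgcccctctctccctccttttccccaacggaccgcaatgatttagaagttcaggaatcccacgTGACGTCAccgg
Region at 82.9 kb, chr6:53370042-53370202: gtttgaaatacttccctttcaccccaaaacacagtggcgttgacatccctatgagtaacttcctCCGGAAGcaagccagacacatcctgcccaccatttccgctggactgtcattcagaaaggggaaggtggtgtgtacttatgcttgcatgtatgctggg
Region at 102 kb, chr6:53389390-53389545: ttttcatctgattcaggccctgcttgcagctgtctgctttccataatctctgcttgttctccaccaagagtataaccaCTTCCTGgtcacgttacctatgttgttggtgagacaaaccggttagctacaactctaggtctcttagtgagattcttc
Region at 115 kb, chr6:53402658-53402878: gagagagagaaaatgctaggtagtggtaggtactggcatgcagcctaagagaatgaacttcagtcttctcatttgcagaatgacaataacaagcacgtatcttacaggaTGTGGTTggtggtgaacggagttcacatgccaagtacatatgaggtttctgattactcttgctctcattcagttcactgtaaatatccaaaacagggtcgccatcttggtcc
Region at 122 kb, chr6:53409203-53409323: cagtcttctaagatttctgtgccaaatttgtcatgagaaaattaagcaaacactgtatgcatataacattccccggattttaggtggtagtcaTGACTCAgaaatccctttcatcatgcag
Region at 168 kb, chr6:53455566-53455726: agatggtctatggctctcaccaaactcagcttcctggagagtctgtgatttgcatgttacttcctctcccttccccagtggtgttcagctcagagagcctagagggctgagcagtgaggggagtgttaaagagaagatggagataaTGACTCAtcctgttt
Region at 186 kb, chr6:53473493-53473613: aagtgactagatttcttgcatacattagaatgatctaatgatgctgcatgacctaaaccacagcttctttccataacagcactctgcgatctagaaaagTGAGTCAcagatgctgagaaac
Region at 211 kb, chr6:53498033-53498153: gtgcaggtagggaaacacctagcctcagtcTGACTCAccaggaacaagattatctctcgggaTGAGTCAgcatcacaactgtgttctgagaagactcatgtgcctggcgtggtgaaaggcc
Region at 303 kb, chr6:53589902-53590062: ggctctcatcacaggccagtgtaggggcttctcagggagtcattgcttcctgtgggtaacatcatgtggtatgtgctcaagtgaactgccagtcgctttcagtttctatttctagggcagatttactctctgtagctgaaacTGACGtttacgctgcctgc

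More of Creb5 was accessible in Foxp3creCREBfl/fl Tregs than in CREBfl/fl Tregs. Of the 21 merged regions, 9 were called in both genotypes, 12 in Foxp3creCREBfl/fl alone and 0 in CREBfl/fl alone. Among all regions, 6.61% of those of Foxp3creCREBfl/fl had no counterpart in CREBfl/fl, and 16.4% of those of CREBfl/fl had none in Foxp3creCREBfl/fl. The called regions of the locus covered 2293 bp in CREBfl/fl and 6501 bp in Foxp3creCREBfl/fl, whereas over the genome they covered 36.8 Mb and 32.7 Mb. With both regions of a pair required to overlap by 50%, 5 regions counted as CREBfl/fl-only and 16 as Foxp3creCREBfl/fl-only.

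For the regions called in both genotypes, the number of fragments over the summit (the pileup) was compared. It was divided by the genome background of its list, 8.44 in CREBfl/fl and 5.09 in Foxp3creCREBfl/fl, and by this measure the CREBfl/fl list was 1.66 times as deep. The log2 ratio of Foxp3creCREBfl/fl to CREBfl/fl is given relative to the median of 82006 regions called in both lists, which was 0.15. Over the 9 shared Creb5 regions the relative log2 ratio ranged from 0.03 to 4.43 with a median of 1.19. It was above 0 at 9 of 9 regions, and at 8 of 9 when the authors' fold over the local background was used, which put the region at 298 kb at -0.20. By the exact binomial 95% interval, which covers counting error only, 7 of 9 lay above 0 and 0 below it. Over all shared regions, 5.47% lay above and 7.88% below. A rule of at least 2-fold and 5 counting SDs called 4 of the 9 higher in Foxp3creCREBfl/fl and 0 lower, and it called 0.0829% of all shared regions higher. The reciprocal overlap of 50% left 5 shared regions with a median of 0.38, of which 1 was called higher, and a -log10 q of at least 10 in both lists left 4 with a median of 0.71, of which 2 were called higher. The region at 115 kb, with the largest ratio, was among those no longer shared in either case.

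**Figure D1:**
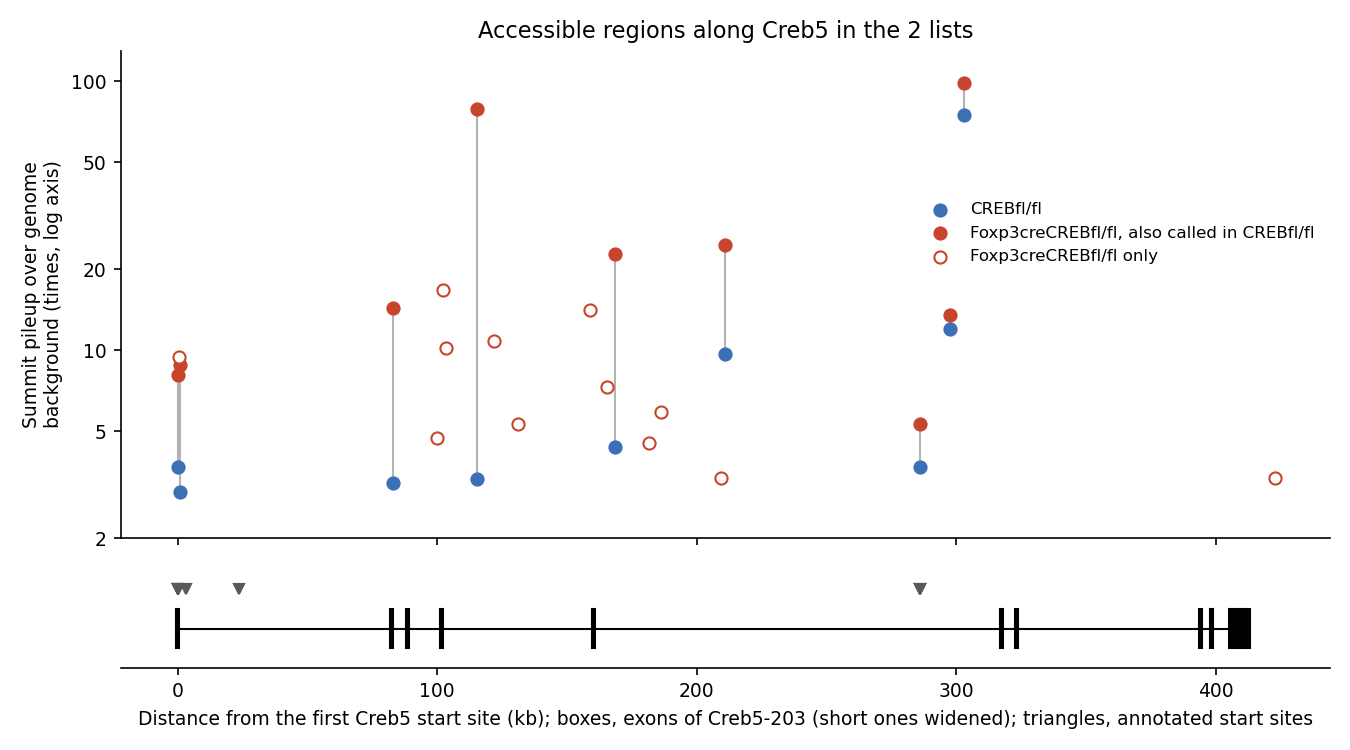
Pileup at the summit over the genome background (times, log axis) against the distance from the first Creb5 start site (kb), for CREBfl/fl (blue) and Foxp3creCREBfl/fl (red; open circles are called in Foxp3creCREBfl/fl alone), above the exons of the coding transcript with 11 exons (boxes) and the annotated start sites (triangles). Between 82.9 and 211 kb the red points lie well above the blue ones, from 3.32 to 79.2 times background at 115 kb, whereas at 298 and 303 kb both genotypes lie close together.

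Most Creb5 transcripts start at the upstream promoter, where 10 of the 15 begin. The promoter region (chr6:53286766-53287598) reaches into the first exon. Its pileup was 31 in CREBfl/fl, 3.67 times background, and 41 in Foxp3creCREBfl/fl, 8.06 times background. The relative log2 ratio was 0.98 (0.28 to 1.71). In CREBfl/fl the promoter was called as 2 short regions, and in Foxp3creCREBfl/fl as 1 region of 833 bp. Downstream of it in the first intron, the region at chr6:53287647-53287791 was called in Foxp3creCREBfl/fl alone, with a pileup of 48 (9.43 times background). The next region (chr6:53288177-53288404), in an exon of the alternative transcript Creb5-211, had 25 and 45 fragments (2.96 and 8.84 times background), for a ratio of 1.43 (0.69 to 2.20). All regions at the promoter were thus weak in both genotypes and weaker in CREBfl/fl. Neither shared region reached 5 counting SDs. By comparison the promoters of the other members of the subfamily were far above background, 188 and 203.4 times for Atf2 and 181 and 214 times for Atf7, where the first value is that of CREBfl/fl.

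The largest difference of the gene lay in intron 4. The region at 115 kb (chr6:53402557-53402878) had a pileup of 28 in CREBfl/fl, 3.32 times background, and 403 in Foxp3creCREBfl/fl, 79.2 times background. Its relative log2 ratio of 4.43 (3.87 to 5.04) had rank 1 among all 82006 shared regions, before a region on chromosome 7 with 2.35. The pileup was higher than that of 90.9% of the regions of the Foxp3creCREBfl/fl list, and in CREBfl/fl it was higher than that of 5.81%. Both summits fell within 1 base of each other, at 53402759 and 53402758. Of the region, 43.2% is soft-masked as repeat, mostly a GA-rich run whose end opens the printed stretch, and 9 of 12 words of 25 bases spaced along the region occurred once in the genome. The most repeated of the 12 had 1171388 copies. How uniquely the reads of each list mapped to the region was not tested. The RUNX word TGTGGTT (53402767 to 53402773) lay next to the summit, and neither a CRE nor an AP-1 word was present.

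A further 3 further shared regions passed the rule, all in introns. The region at 168 kb in intron 5 (chr6:53455410-53455845) had 37 and 116 fragments, or 4.38 and 22.8 times background, for a ratio of 2.23 (1.68 to 2.80), rank 4 among all shared regions. At 82.9 kb in intron 2 (chr6:53369984-53370273) the pileups were 27 and 73, or 3.20 and 14.3 times background, with a ratio of 2.02 (1.36 to 2.71) and rank 8. Thus 3 of the 8 largest ratios among all shared regions were those of Creb5. At 211 kb (chr6:53497838-53498368) CREBfl/fl already had a pileup of 82, 9.71 times background, against 125 in Foxp3creCREBfl/fl, 24.6 times background. Its ratio of 1.19 (0.78 to 1.61) had rank 101 and was the lowest of the 4 that passed. The highest ratio that did not pass was the 1.43 in Creb5-211 at the promoter, with fewer fragments.

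**Figure D2:**
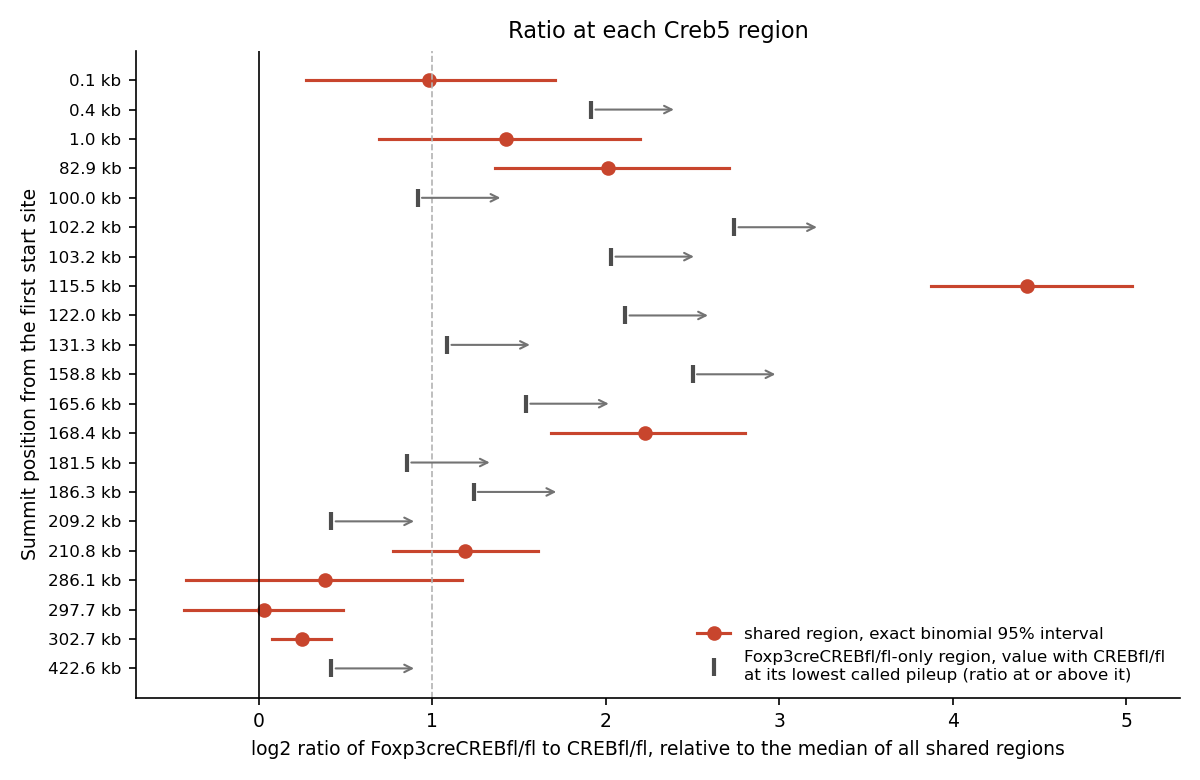
Relative log2 ratio of Foxp3creCREBfl/fl to CREBfl/fl (horizontal axis) for the 21 Creb5 regions, ordered by distance from the first start site (vertical axis), with exact binomial 95% intervals for shared regions. Vertical ticks with arrows give, for regions called in Foxp3creCREBfl/fl alone, the ratio with CREBfl/fl put at a pileup of 19, which is not a strict lower bound. The solid line marks 0 and the dashed line 2-fold, and the last 3 shared regions, from 286 kb on, have ratios of 0.03 to 0.38.

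Of the 12 regions called in Foxp3creCREBfl/fl alone, 10 lay in introns 3 to 5 of the coding transcript with 11 exons, 1 at the promoter and 1 downstream of the gene. The strongest was at 102 kb (chr6:53389390-53389730), where the pileup was 85, 16.7 times background. A pileup of 72 (14.2 times) was found at 159 kb (chr6:53445788-53446377), the longest of these regions with 590 bp. Next were 55 (10.8 times) at 122 kb (chr6:53409186-53409591) and 52 (10.2 times) at 103 kb (chr6:53390397-53390782). The regions at 102 and 103 kb lie in an exon of Creb5-214, a transcript annotated as retaining an intron. The remaining ones were weaker. Pileups were 37 (7.27 times) at 166 kb (chr6:53452828-53453004) and 30 (5.90 times) at 186 kb (chr6:53473481-53473628). They were 27 (5.31 times) at 131 kb (chr6:53418453-53418624) and 24 (4.72 times) at chr6:53387171-53387254, near exon 4. The weakest had 23 (4.52 times) at 181 kb (chr6:53468682-53468813), 17 (3.34 times) at 209 kb (chr6:53496379-53496490) and 17 (3.34 times) at 423 kb (chr6:53709840-53709923), after the end of the gene.

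A region without a call in CREBfl/fl can still hold fragments. The lowest pileup called at the genome background was 19 in CREBfl/fl and 14 in Foxp3creCREBfl/fl. With CREBfl/fl put at 19, the relative log2 ratio of the 12 regions would be 0.42 to 2.74, and at or above 1 at 8. These values are called bounds here, but they are not strict. An uncalled CREBfl/fl site with a higher local background, or a pile too narrow to be called, could hold more than 19 fragments. Bounds above 0 were fixed in advance, since 14 in Foxp3creCREBfl/fl, after the median shift, is already higher over background than 19 in CREBfl/fl. The share of bounds at or above 1 among all regions called in Foxp3creCREBfl/fl alone was not computed. The highest bounds were 2.74 at 102 kb, 2.50 at 159 kb and 2.11 at 122 kb. At the depth of the CREBfl/fl list, the same height over background would have given pileups of 28.2 to 141. With the median shift that the bounds include, these were 25.4 to 127. The bounds carry the counting error of the Foxp3creCREBfl/fl pileups, which is largest for the 2 regions with 17 fragments.

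The end of the gene differed less between the genotypes. From the internal start site at 53573300 on, where 3 transcripts begin, 3 of 3 regions were shared, with ratios of 0.03 to 0.38 and a median of 0.25. Before it, 6 of 17 regions were shared and 11 were called in Foxp3creCREBfl/fl alone, and the ratios of the shared ones were 0.98 to 4.43 with a median of 1.72. The region at the internal start (chr6:53573251-53573387) had 31 and 27 fragments, or 3.67 and 5.31 times background, for a ratio of 0.38 (-0.42 to 1.17). At 298 kb (chr6:53584681-53585039) the pileups were 101 and 69, or 12.0 and 13.6 times background, with a ratio of 0.03 (-0.43 to 0.49). The strongest region of the gene was at 303 kb (chr6:53589701-53590313), with 632 and 502 fragments, 74.8 and 98.7 times background. Its ratio was 0.25 (0.08 to 0.42), and with 93.7% of the Foxp3creCREBfl/fl regions and 91.8% of the CREBfl/fl regions below it, it ranked similarly in both lists. By these values an intron of Creb5 was well accessible in the control Tregs too, while the sites from the promoter to 186 kb were weak or not called there.

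**Figure D3:**
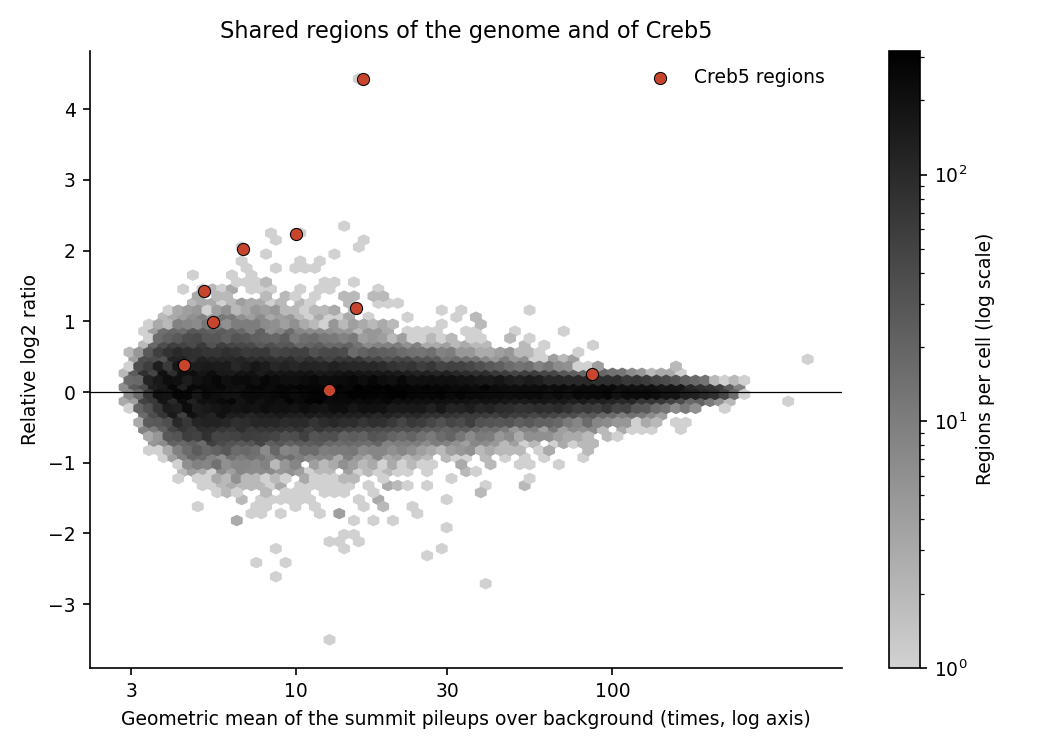
Relative log2 ratio (vertical axis) against the geometric mean of both pileups over background (times, log axis) for all 82006 shared regions (grey, darker where more regions fall in a cell) and the 9 of Creb5 (red). The region at 115 kb, with 4.43, lies above every other shared region, and the next shared region has 2.35.

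Among 21728 protein-coding genes with 10 kb on each side, Creb5 had the most shared regions called higher, 4, and the next gene had 2. By the number of regions called in Foxp3creCREBfl/fl alone it had rank 4. The 3 genes before it, Fgfr2 with 17 of 184 regions, Gm20388 with 17 of 433 and Inpp4b with 16 of 186, had many more regions in all. Of 997 genes longer than 200 kb the median had 6 regions and 0 in Foxp3creCREBfl/fl alone. Among 2288 genes with at least 9 shared regions the median ratio of Creb5 was the highest, and the next was 0.58. These ranks describe the choice of the gene and are not a test of it.

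The genes most like Creb5 were found by their distance on 2 measures, the median ratio of shared regions and the share of regions called in Foxp3creCREBfl/fl alone minus the share called in CREBfl/fl alone, which was 57.1% for Creb5. Among 2782 genes with at least 10 regions the nearest was Slc24a3, which encodes a sodium, calcium and potassium exchanger, with 10 shared and 5 Foxp3creCREBfl/fl-only regions and a median of 0.58 (distance 0.653). It was followed by Arnt2, a partner of PAS-domain transcription factors, with 4 shared, 1 CREBfl/fl-only and 6 Foxp3creCREBfl/fl-only regions and a median of 0.46. Map2k6, a kinase that activates p38, had 9 shared and 1 Foxp3creCREBfl/fl-only region and a median of 0.48. Ncald, which encodes a neuronal calcium sensor, had a median of 0.41 over 14 shared regions, and the homeobox gene Pbx3 0.49 over 7. All 5 had smaller medians than Creb5, and the likeness was measured over the 2 lists only.

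**Figure D4:**
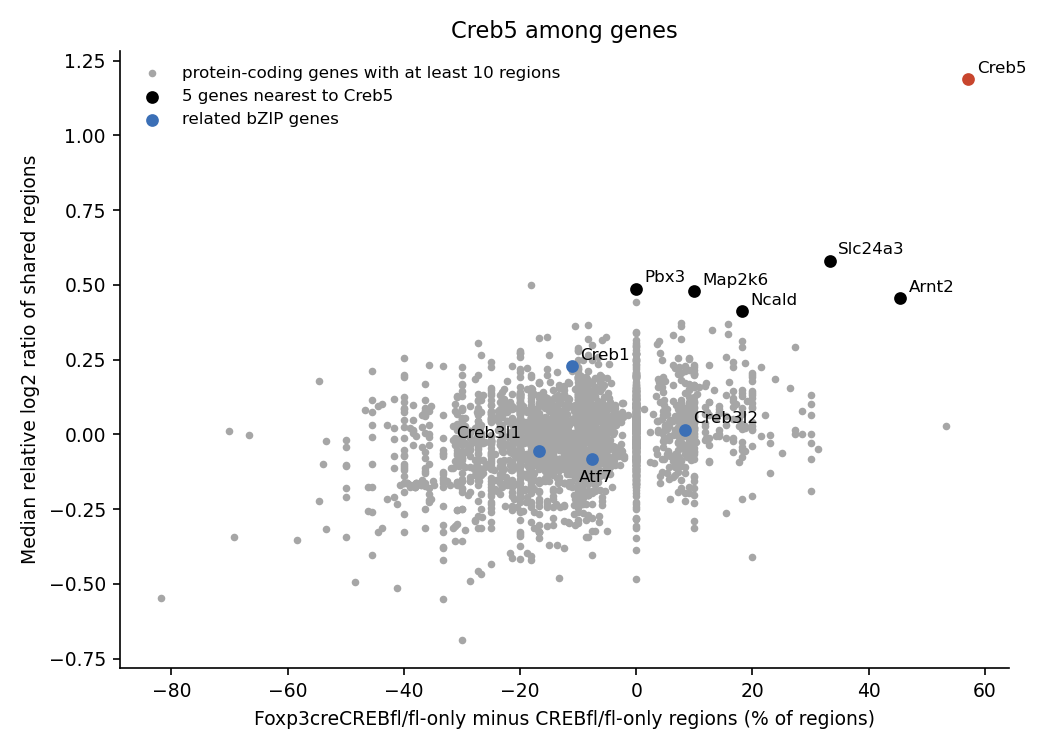
Median relative log2 ratio of the shared regions (vertical axis) against the share of regions called in Foxp3creCREBfl/fl alone minus the share called in CREBfl/fl alone (horizontal axis, % of regions) for 2782 protein-coding genes with at least 10 regions (grey; genes without a shared region are not drawn). Creb5 (red) lies at 57.1% and 1.19, and the 5 nearest genes (black) have medians of 0.41 to 0.58. The related bZIP genes Atf7, Creb1, Creb3l1 and Creb3l2 (blue) have medians of -0.08 to 0.23.

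The neighbourhood of Creb5 differed from the gene. In the 500 kb before the window, 25 regions were shared, 4 were called in CREBfl/fl alone and 1 in Foxp3creCREBfl/fl alone, with ratios from -0.81 to 0.83 and a median of -0.05. In the 500 kb after it, 38 were shared, 7 and 5 were called in 1 genotype alone, and the median was 0.02 (-1.09 to 0.77). The rule called 0 regions higher or lower on either side. The last region before the window, 121 kb outside, had 27 and 26 fragments, a ratio of 0.53. After it, a region called in Foxp3creCREBfl/fl alone (pileup 33) lay 11.4 kb outside, and the next, 55.0 kb outside, had 43 and 21 and a ratio of -0.45. On the whole of chromosome 6 the median was 0.00, and 8 of 4406 shared regions (0.182%) were called higher. Beside the 4 of Creb5, a region farther upstream (chr6:52703305-52703615) had 53 and 139 fragments and a ratio of 1.97.

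**Figure D5:**
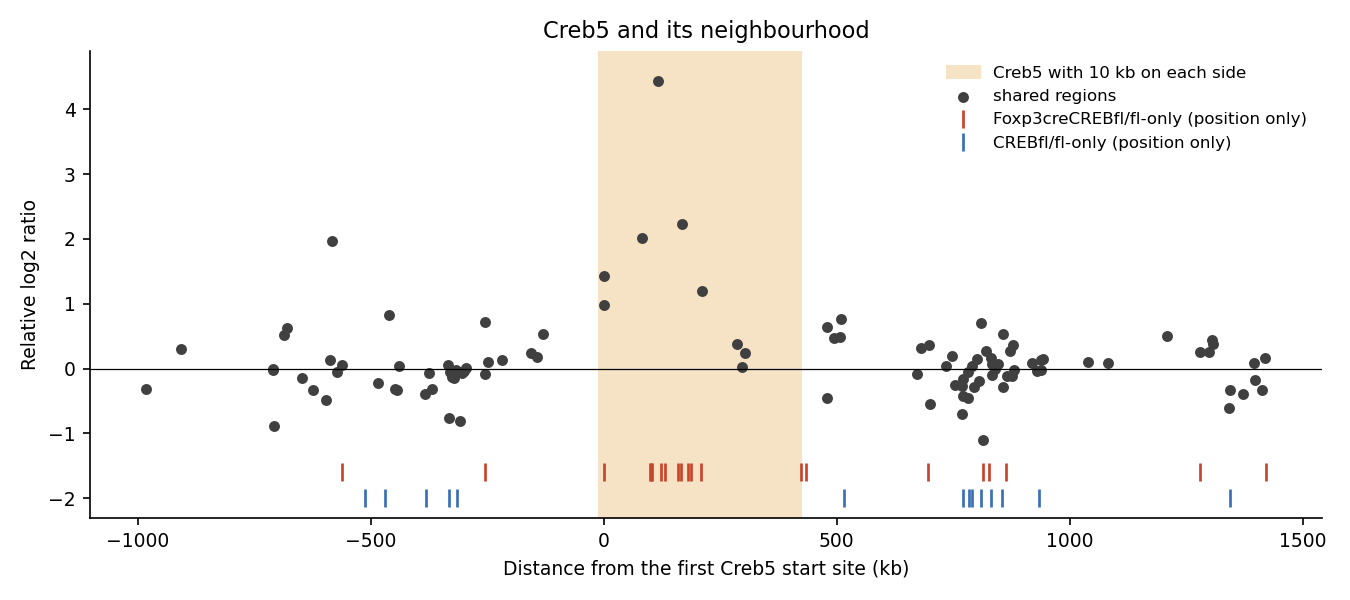
Relative log2 ratio of shared regions (points, vertical axis) within about 1 Mb of Creb5, against the distance from its first start site (kb); ticks below mark the positions of regions called in 1 genotype alone. The shaded span is Creb5 with 10 kb on each side, and in the 500 kb on either side of it ratios range from -1.09 to 0.83.

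None of the 13 protein-coding genes within 1 Mb of Creb5, with 10 kb on each side, had a region called higher or lower. The nearest upstream neighbour Jazf1, which encodes a zinc finger protein, had 22 shared regions with a median of -0.07, 5 called in CREBfl/fl alone and 1 in Foxp3creCREBfl/fl alone. The nearest downstream neighbour Tril, an accessory protein of Toll-like receptor signalling, had 0 regions, and the peptidase gene Cpvl had 4 shared regions with a median of 0.12. Chn2, which encodes a GTPase-activating protein for Rac, had 32 shared regions with a median of -0.02. The farther genes Evx1, Hibadh, Tax1bp1, Prr15, Wipf3, Scrn1, Fkbp14, Plekha8 and Mturn had 1 to 6 shared regions each and medians of -0.32 to 0.50.

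The other bZIP genes that share the CRE with CREB5 had 0 to 3 regions each that were called in Foxp3creCREBfl/fl alone. Of the ATF2 subfamily, Atf2 had 6 shared regions and 0 in 1 genotype alone, with a median of 0.17, and Atf7 had 10 shared, 2 CREBfl/fl-only and 1 Foxp3creCREBfl/fl-only region with a median of -0.08. Creb1, the gene deleted in Foxp3creCREBfl/fl, had 10 shared, 5 CREBfl/fl-only and 3 Foxp3creCREBfl/fl-only regions and a median of 0.23. The lists give no coverage of its floxed exons, so these values do not check the deletion. Atf1 had 3 shared and 2 CREBfl/fl-only regions (median 0.05), and Crem, which encodes activators and repressors related to CREB, had 5 shared, 2 CREBfl/fl-only and 1 Foxp3creCREBfl/fl-only region (median -0.26). The CREB3 subfamily, factors made as membrane proteins of the endoplasmic reticulum, had 31 shared regions over 5 genes with a median of -0.05, from -0.09 for Creb3l3 to 0.03 for Creb3l4. None of the genes named from these 3 subfamilies other than Creb5 had a region called higher or lower. The ATF4, ATF5 and ATF6 group, factors of stress responses, had 27 shared and 2 CREBfl/fl-only regions over 5 genes with a median of -0.03, and 1 region was called higher and 1 lower. Both were in the window of Atf6, where the higher one (chr1:170845734-170846424) had 49 and 118 fragments and a ratio of 1.85 (1.36 to 2.36). The 12 genes of JUN, FOS and related partners had 74 shared, 12 CREBfl/fl-only and 3 Foxp3creCREBfl/fl-only regions with a median of 0.02 and 0 called higher.

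The CRE and AP-1 words were searched in all regions of Creb5 on both strands. The full CRE TGACGTCA was present in 1 of 21 Foxp3creCREBfl/fl regions, the promoter region (4.76%, against 1.10% of all regions of that list). It lay at 53287258 to 53287265, and 1.79% of 32851 RefSeq promoters of 300 bases in GRCm38 held it. The word TGACG, which is part of the CRE, was in 2 regions (9.52%, against 18.2%), at the promoter and at 303 kb. The AP-1 words TGACTCA and TGAGTCA were in 7 of 21 regions (33.3%), and 10.9% of all Foxp3creCREBfl/fl regions held them. Within 300 bp around the summit they were in 6 of 21 (28.6%, against 9.998%). In the CREBfl/fl list 4 of 10 Creb5 regions held them, against 10.6% of all regions. The AP-1 regions were the promoter, those at 122, 168, 186 and 211 kb, the internal start and the region downstream of the gene. Their ratios or bounds thus ran from 0.38 to 2.23, over much of the range of the locus, and the region at 115 kb held none. With a TGACTCA and a TGAGTCA, the region at 211 kb was the only Creb5 region with more than 1.

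Further words were counted for description. The ETS words CCGGAAG and CAGGAAG were in 8 of 21 regions (38.1%, against 28.7% of the list), and the RUNX words TGTGGTT and TGCGGTT in 4 (19.0%, against 14.0%). The STAT word TTCNNNGAA was in 4 regions, against 9.63%. The GATA word AGATAA was also in 4, against 13.6%. NFAT (TGGAAAA) and SP/KLF (GGGCGG) words were in 2 regions each, against 6.72% and 19.6%. TCF/LEF (CTTTGAT), FOX (TGTTTAC) and CTCF core (CCACNAGG) words were in 1 region each, against 5.44%, 4.59% and 9.48%. Each full CRE contains TGACG on both strands, so these counts overlap.

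Markers of Tregs and of other cells were read from the regions within 1 kb of their start sites. Their levels over background are not shifted to the median log2 ratio of all shared regions, which was 0.15. For 8 of 8 Treg markers, among them Foxp3, Il2ra and Ctla4, both lists had such a region, with summed levels of 599 and 607 times background. Of the myeloid markers 5 of 10 had one in both lists, with sums of 161 and 180, and Lyz2, Csf1r, S100a8, S100a9 and Adgre1 had none. Of the CD8 and NK cell markers 4 of 6 had one (45.0 and 41.5), and Cd8a and Ncr1 had none. The B cell markers Cd79b, Ms4a1, Pax5 and Ebf1 had one in both lists, with sums of 53.4 and 68.2, a larger relative difference than in the other marker lists, and Cd79a had none. Among them Ms4a1 had levels of 3.08 and 7.47 times background, with a relative log2 ratio of 1.13 at its 1 shared region and an interval above 0, and Pax5 had levels of 19.8 and 26.1. Of all 104845 merged regions of the genome, 16519 were called in CREBfl/fl alone and 6244 in Foxp3creCREBfl/fl alone. Over whole genes, the Treg markers had 225 merged regions. Of these, 42 were called in CREBfl/fl alone and 16 in Foxp3creCREBfl/fl alone, with a median of -0.03 over 167 shared regions. Medians were -0.21 for Foxp3, -0.28 for Ctla4, -0.15 for Il2ra and 0.13 for Ikzf2, and from -0.10 to -0.02 for the remaining markers. The rule called 1 region lower, at Ctla4. The naive and central T cell genes had 241 merged regions. Of these, 60 were called in CREBfl/fl alone and 4 in Foxp3creCREBfl/fl alone, with a median of -0.17 over 177 shared regions. Genes of ST2+ tissue Tregs had 142 merged regions, of which 25 were called in CREBfl/fl alone and 10 in Foxp3creCREBfl/fl alone, with a median of -0.02 over 107 shared regions. Rora and Gata3 held 43 and 20 of these shared regions, with medians of -0.12 and -0.03. Areg had 1 shared region, at -0.49, and the medians of Il1rl1, Batf and Nfil3 were -0.10, -0.09 and -0.02. Pparg, in contrast, had a median of 0.72, with 5 of 5 shared regions above 0 and 2 called in Foxp3creCREBfl/fl alone, and Klrg1 had 0.24, with 7 of 8 above 0 and 3 called in Foxp3creCREBfl/fl alone. At Il1rl1, 4 of 9 shared regions lay above 0, with 1 interval above 0 and 0 below it. Within 1 kb of their start sites, the ST2+ tissue Treg genes had summed levels of 415 and 444 times background. Levels were 6.16 and 9.83 for Il1rl1, 98.8 and 124 for Gata3, and 5.80 and 9.63 for Pparg. Rora, with 94.1 and 91.6, and Areg, with 42.2 and 33.2, were lower in Foxp3creCREBfl/fl. What part the cell mix of the libraries had in the values at Creb5 was not tested.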

How the data were processed

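ATAC-seq peak lists of splenic Tregs, 1 per genotype, were used as deposited. The submitters' processing notes and the methods name Trim Galore for the 75 bp reads, Bowtie2 for alignment, SAMtools for filtering after duplicate removal, and MACS2 for peak calling, all without a version. The authors' MACS2 output gives for each region a score, a fold over background (a ratio) and -log10 p and q values. The methods name mm9, but positions were read as GRCm38: 53.4% and 52.8% of 93145 start sites had a region within 1 kb, against 14.8% and 13.9% after a shift of 100 kb. The methods also name calling without local background, although only 32.6% and 29.6% of regions stood at the lowest background.

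The pileup and background of each region were recovered from the authors' fold and -log10 p, within 0.002 on that scale, for 99.94% and 99.97% of regions. Median pileups were 90 and 66. Where a merged region held several peaks, the highest pileup was taken. Regions overlapping by at least 1 bp were shared. Intervals are exact conditional binomial (Clopper-Pearson) and assume that fragments were counted alike for both genotypes. The recovery and the rule were tested on simulated data. Python 3.11.15, numpy 2.4.6, pandas 2.3.3, scipy 1.17.1 and matplotlib 3.10.9 were used. Motif words were searched in RefSeq's GRCm38.p6 sequence, with 2 of 2 RefSeq promoters of Creb5 matched.

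The gene, the lists and the rules were chosen with earlier results of these data known. Named are all Creb5 regions, the ATF2, CREB and CREB3 subfamilies, the protein-coding neighbours within 1 Mb and the 5 genes most like Creb5. The genes ahead of Creb5 in rank were named after their values were seen. A further marker is not reported here.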

Additional observations from a re-analysis of the deposited data

How the results depend on the processing

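Of 41 alternatives, 36 stayed close to the values given, 5 moved and 0 reversed. The tally leaves out the number called higher under the reciprocal overlap and under the -log10 q of at least 10. It also leaves out the median ratio under the latter, and these values changed, as given below. The bounds above 0, which were fixed in advance, are among those counted as close. With a reciprocal overlap of 50%, the CREBfl/fl-only regions of Creb5 went from 0 to 5, the shared ones from 9 to 5 and their median ratio from 1.19 to 0.38 and those called higher from 4 to 1, because short CREBfl/fl regions within longer Foxp3creCREBfl/fl regions then no longer pair. With both lists held to a -log10 q of at least 10, 4 regions were shared and 11 were Foxp3creCREBfl/fl-only, the median ratio was 0.71 and 2 regions were called higher. The region at 115 kb was not shared under either setting. With the interval alone as the rule, 7 regions counted as higher in place of 4. The number of Foxp3creCREBfl/fl-only regions ran from 11 to 16 over all overlaps, thresholds and windows tried, but these were not the same regions throughout. At a -log10 q of at least 10, those near exon 4 and at 131, 181, 209 and 423 kb dropped out. In their place came shared regions whose CREBfl/fl calls were removed, at the promoter, in Creb5-211, at 82.9 kb and at 115 kb. Without the shift to the median of all shared regions the median ratio was 1.34, and with the authors' fold over the local background it was 1.10. No paired analysis was possible because the lists hold 1 column set per genotype and no replicate numbers, and for the same reason no library could be left out. Depth limits the weak regions: at pileups near 19 in CREBfl/fl a missing call does not show closed chromatin.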
